A study of Mus musculus with 6 samples.

Results

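Ciliary-epithelium-like nuclei made up 183 of the 56205 nuclei kept from 6 single-nucleus RNA libraries of mouse retina, or 0.326%. A nucleus was counted when at least 3 of the 8 marker genes Fbln1, Frmpd4, Mecom, Slc6a13, Slc13a4, Slc16a12, Crhbp and Optc each had a UMI. A UMI, or unique molecular identifier, stands for 1 captured RNA molecule. At most 1 UMI of Abca8a, an ABC transporter gene of Muller glia, was allowed. A nucleus with any UMI of Slc17a6, Gad1, Slc6a9, Trpm1 or Top2a, genes of ganglion, amacrine, ON bipolar and dividing cells, was left out. The comparison population was 5325 Muller nuclei, defined by at least 2 UMIs of Abca8a. Of these, 94 also had UMIs of at least 3 of the 8 markers and were kept, so the Muller levels below include them.

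The ciliary epithelium is a paired cell layer that continues the retina forward behind the iris. Its non-pigmented layer, the forward extension of the neural retina, moves sodium, chloride, bicarbonate and water to form the aqueous humour and secretes proteins of the vitreous. It arises at the margin of the optic cup, where BMP and Wnt signals and transcription factors such as those of the Zic and Otx families are active. Muller glia, the radial glia of the retina, share an optic cup origin with it and handle glutamate, potassium and retinoids for neurons.

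All animals carried the rd10 allele of Pde6b (strain B6.CXB1-Pde6b-rd10/J), a rod phosphodiesterase mutation after which rods and then cones die. Eyes received an intravitreal injection of 20 ng recombinant IL-27, a cytokine that acts on immune and other cells, or of saline at post-natal day 18, and retinas were frozen at day 20. There were 3 libraries a group, saline replicates 1, 2 and 6 and IL-27 replicates 4, 5 and 10, and every library had the rd10 background, so no group without degeneration or without injection was compared. The labels do not say whether a library held more than 1 animal, and all p-values below measure the spread between these libraries.

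The libraries held 36678332 to 48260748 UMIs and 8868 to 9885 kept nuclei. Xist RNA was at 2054 CPM (counts per 1000000 UMIs of the library) in saline 2 and at 2010 in IL-27 5 and below 1 in the other 4 libraries, so each group had 1 library of female tissue. Of 55837 distinct nucleus barcodes, 367 (0.657%) occurred in more than 1 library, and no barcode was a ciliary-epithelium-like nucleus in more than 1. Scrublet, a doublet caller set to mark the 8% of highest scores in each library, marked 14 of the 183 nuclei (7.65%). These were kept here.

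The 8 marker genes and Abca8a chose the nuclei, so their values are a description. Over all 183 nuclei, Frmpd4, a scaffold protein gene, had a UMI in 95.6%. Mecom, which encodes a zinc finger transcription factor, had one in 89.6% and Fbln1, a secreted matrix glycoprotein, in 83.6%. Slc6a13, the GABA and taurine transporter GAT2, was detected in 60.1%, Crhbp, the binding protein of corticotropin-releasing hormone, in 53.6% and Optc, the vitreous proteoglycan opticin, in 51.9%. The sulfate transporter Slc13a4 and the creatine transporter Slc16a12 were each detected in fewer, 36.6% and 37.2%.

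Background RNA, as measured in ON bipolar nuclei, was low for most of these genes. In ON bipolar nuclei, which should lack them, Fbln1 had a UMI in 1.59%, Mecom in 0.703%, Optc in 1.5% and Frmpd4 in 11.2%. The same genes were found in 3.17%, 2.38%, 3.02% and 7.96% of Muller nuclei, which were deeper (4556 to 5182 median UMIs a library) than the ciliary-epithelium-like nuclei (2580.5 to 3989.5). With every nucleus thinned to 1000 UMIs, Fbln1 was left in 59.1% and Optc in 33.7% of the ciliary-epithelium-like nuclei against 1.32% and 1.09% of Muller nuclei. The thinning left out 2 of the former and 19 of the latter for being shallower. The Muller values are no measure of background, since 94 Muller nuclei had UMIs of at least 3 of the 8 markers. Before thinning, Fbln1 had 715 UMIs in 169 Muller nuclei and 627 UMIs in 153 ciliary-epithelium-like nuclei. In ON bipolar nuclei it had 166 UMIs in 156 nuclei.

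**Figure D1:**
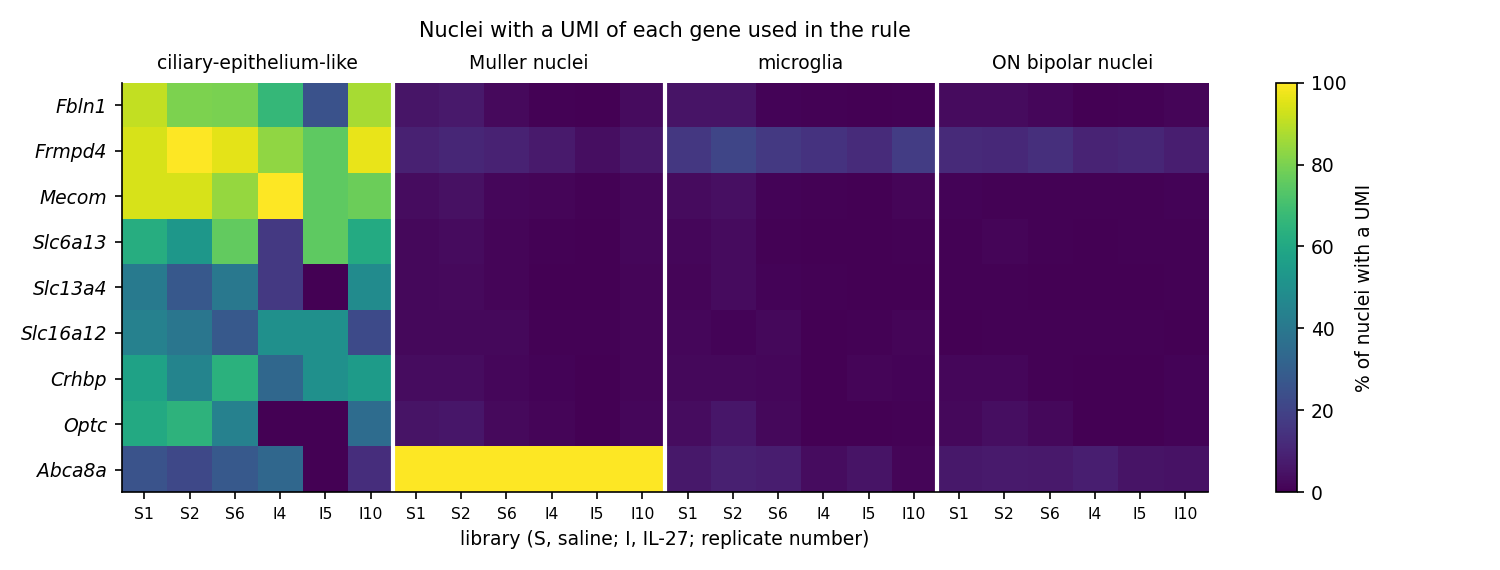
Heat map of the percentage of nuclei with at least 1 UMI. Rows are the 8 marker genes and Abca8a, and columns are 4 populations in 6 libraries each. Brighter colours mark higher percentages. The ciliary-epithelium-like columns are bright for Frmpd4, Mecom and Fbln1 in 4 libraries and hold no Optc in IL-27 4 and IL-27 5. The ON bipolar, microglia and Muller columns stay dark outside Abca8a.

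The label was weaker in IL-27 4 and IL-27 5, which gave 6 and 4 nuclei. Optc had a UMI in 60.6%, 64.7% and 44.0% of the nuclei of saline 1, 2 and 6 and in 35.5% of those of IL-27 10. It had none in IL-27 4 or IL-27 5. Summed over the nuclei of a library and given as CPM of the summed UMIs, Fbln1 was at 1070, 981 and 1121 in saline 1, 2 and 6, at 1027 in IL-27 10, and at 197 and 52.7 in IL-27 4 and 5. So the 142 saline nuclei and the 31 of IL-27 10 carry the description below. Gene levels rest on few nuclei in the other IL-27 libraries. IL-27 5 had fewer than 5 nuclei and was left out of every fitted test unless stated.

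Nuclei just inside and just outside the threshold differed in level. Among nuclei that met the other conditions, 41 had exactly 3 markers and 217 had exactly 2. A list of 25 non-pigmented ciliary epithelium genes that holds none of the 8 markers summed to 2636 CPM in the former and 637 CPM in the latter. Zic1, a gene of the list, stood at 126 and 23.7 CPM. The list was chosen with earlier results of these data known, so its level is a description and not independent evidence for the label. Its sum also counts genes that Muller nuclei hold. Over the 5 fitted libraries Col9a1 averaged 1389 CPM in Muller and 1096 CPM in ciliary-epithelium-like nuclei, and Tgfb2 544 and 410 CPM. Of its 16 tested genes, 8 were higher than in Muller nuclei and 2 lower. Rorb, a nuclear receptor gene of Muller glia and other retinal cells, stood at 615 CPM with 3 markers and 1490 CPM with 2. The 19 nuclei with 4 markers were at 5024 CPM for the ciliary list, 405 CPM for Zic1 and 223 CPM for Rorb. Nuclei with 5 to 7 markers stayed between 4346 and 4976 CPM for that list. A list of 18 Muller glia genes did not fall with Rorb. It summed to 2070 CPM with 2 markers, 6025 CPM with 3 and 8003 CPM with 4. With 5 to 8 markers it stayed between 6160 and 7854 CPM.

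**Figure D2:**
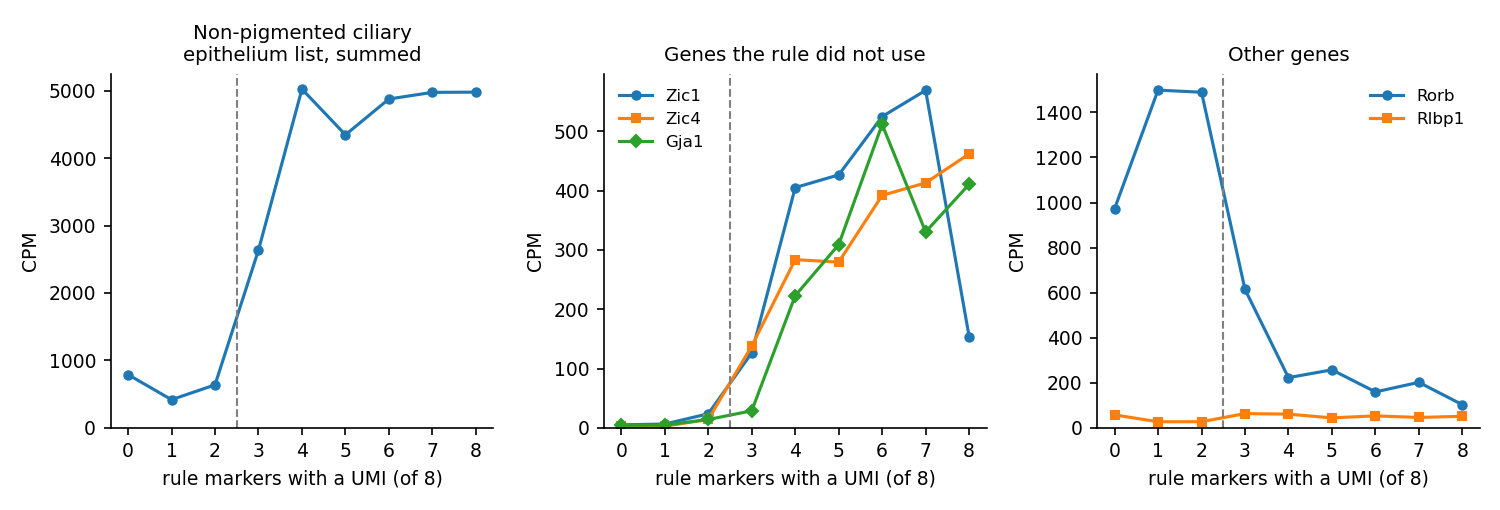
Levels in CPM (linear axes) against the number of the 8 marker genes detected, from 0 to 8, in nuclei that met the other conditions. The list of non-pigmented ciliary epithelium genes, Zic1, Zic4 and Gja1 climb between 2 and 4 markers and Rorb falls; the dashed line stands between 2 and 3 markers, where the rule begins.

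Nuclei with 3 markers were also the least uniform. Zic1, Zic2 or Zic4 had a UMI in 22 of these 41 (53.7%) and in 101 of the 123 nuclei with 5 or more markers (82.1%). Markers of another class (at least 3 of 10 vascular genes, at least 3 microglial genes, or at least 5 of 8 neuronal genes, a limit and a neuronal list chosen after values were seen) were carried by 9 of the 41 and by 3 of the 123 (2.44%). They include 1 nucleus of IL-27 4 with UMIs of all 10 vascular genes. Over the 183 nuclei, 136 (74.3%) had a UMI of Zic1, Zic2 or Zic4. UMIs of at least 3 genes of the non-pigmented ciliary epithelium list were found in 175 (95.6%). Muller nuclei also hold genes of that list, such as Col9a1, and how many of them had at least 3 was not counted. The 95.6% therefore does not set these nuclei apart from Muller nuclei.

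Marker lists of other cell types differed in level between the libraries of the 183 nuclei. The pigment cell list summed to 79 to 229 CPM in the 6 libraries against 86 to 116 CPM in Muller nuclei. Tyr, the tyrosinase gene that defines pigment cells, had no UMI and Mlana 1. Lens genes summed to 0 to 53 CPM, and cornea or conjunctiva genes had UMIs only in IL-27 10. The fibroblast and arachnoid list summed to 253, 72 and 133 CPM in saline 1, 2 and 6 and to 118, 0 and 290 CPM in IL-27 4, 5 and 10, against 15 to 20 CPM in Muller nuclei. Its 1 gene that could be tested, the collagen gene Col1a2, was higher than in Muller nuclei. The astrocyte list summed to 53 to 582 CPM against 420 to 535 CPM in Muller nuclei. Of its 5 tested genes, Slc39a12 and Igfbp5 were higher and Aqp4 lower, while its defining gene Gfap did not pass (log2 difference 0.46). Endothelial and pericyte genes reached 5915 CPM in IL-27 4, where 1 nucleus carried them, and 207 to 881 CPM in the other libraries, below the 960 to 1502 CPM of Muller nuclei. Their part in the results was not tested.

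The population was chosen as the one enriched in saline eyes, so its share is a description and gets no test. Ciliary-epithelium-like nuclei were 66 of 9885 in saline 1, 51 of 8868 in saline 2 and 25 of 9422 in saline 6. They were 6 of 9396 in IL-27 4, 4 of 9231 in IL-27 5 and 31 of 9403 in IL-27 10. The saline libraries held 142 of the 183 nuclei (77.6%) and IL-27 10 most of the other 41.

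As percentages with exact Clopper-Pearson 95% intervals, which cover counting error only, the saline shares were 0.668% (0.517 to 0.849), 0.575% (0.428 to 0.755) and 0.265% (0.172 to 0.391). The IL-27 shares were 0.0639% (0.023 to 0.139), 0.0433% (0.012 to 0.111) and 0.330% (0.224 to 0.468). The groups overlapped, since IL-27 10 lay above saline 6 and their intervals cover each other's values. The mean was 0.503% ± 0.211 (SD, n = 3) for saline and 0.146% ± 0.160 (SD, n = 3) for IL-27, a ratio of 3.45. Without IL-27 10 the IL-27 mean was 0.0536% and the ratio 9.38, and without any other single library the ratio was 2.55 to 4.27.

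**Figure D3:**
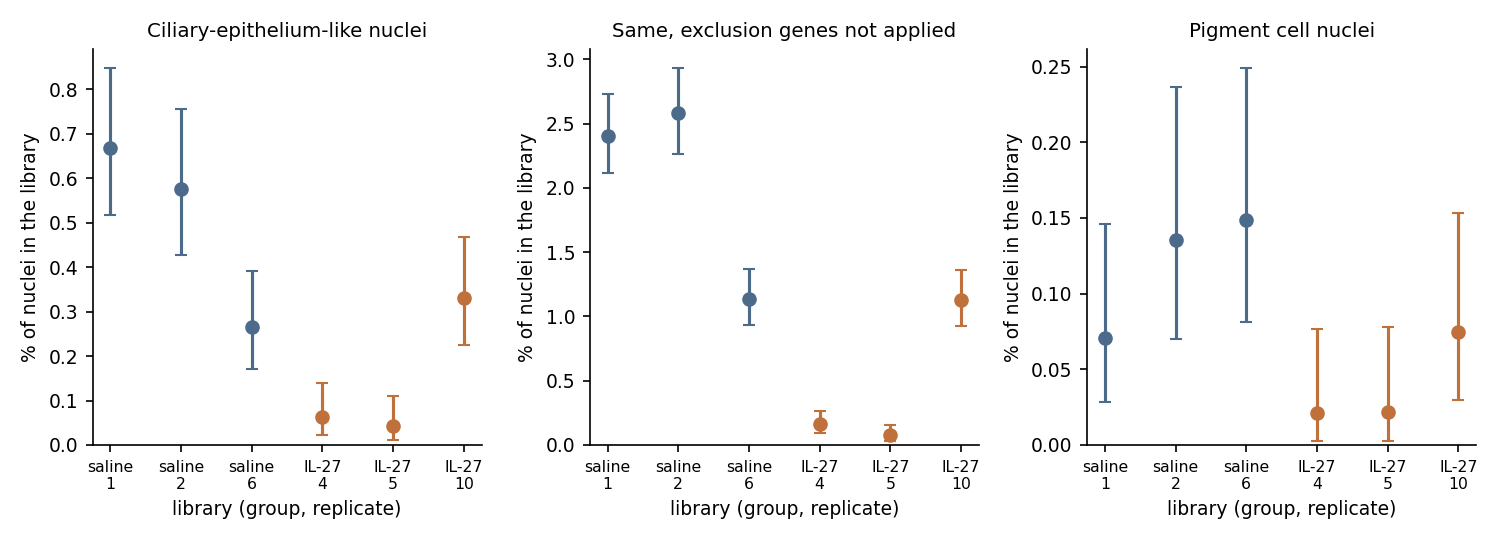
Percentage of kept nuclei in each of the 6 libraries, with exact 95% intervals, for ciliary-epithelium-like nuclei, for the same rule without its exclusion genes, and for pigment cell nuclei. IL-27 4 and IL-27 5 are lowest for the first 2 populations, and IL-27 10 lies beside saline 6 in both.

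The exclusion genes removed most nuclei that carried the markers. Without them the rule took 702 nuclei, of which 519 (73.9%) had a UMI of an exclusion gene. Trpm1, a channel gene of ON bipolar cells, had a UMI in 389 of the 519 and alone removed 204. Trpm1 had a UMI in 29.1% of Muller nuclei and 20.9% of microglia as well. The glycine transporter gene Slc6a9 was found in 247 of the 702, against 7.79% of Muller nuclei, 10.8% of ON bipolar nuclei and 11.9% of microglia. Gad1 was found in 70, Slc17a6 in 24 and Top2a in 19, against 9.03%, 1.93% and 0.601% of Muller nuclei. The removal may therefore select among the marker-bearing nuclei, most of all through Slc6a9, and this was not tested.

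The removed nuclei were deeper than the kept ones in all 6 libraries, with medians of 4005, 4498.5 and 3899 UMIs in saline 1, 2 and 6 and 6139, 5321 and 3954 UMIs in IL-27 4, 5 and 10. Zic1 was at 392, 356 and 283 CPM in the removed saline nuclei and at 323 CPM in those of IL-27 10, and Slc6a6 was at 1923, 1991, 1976 and 2114 CPM. Scrublet marked 81 of the 519 (15.6%). The part of depth and of doublets in the removal was not tested.

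Counted without the exclusion genes, the shares were 2.41%, 2.58% and 1.14% in saline 1, 2 and 6. They were 0.160%, 0.0758% and 1.13% in IL-27 4, 5 and 10. The saline mean was 2.04% ± 0.790 and the IL-27 mean 0.454% ± 0.584 (SD, n = 3 each). The order of the libraries at the low end did not change, and IL-27 10 (106 nuclei) then lay just under saline 6 (107 nuclei). With all nuclei thinned to 1000 UMIs before the rule was applied, the saline shares were 1.38%, 1.42% and 0.602% and the IL-27 shares 0.0471%, 0.0236% and 0.757%.

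Muller nuclei moved less between the libraries, at 10.9%, 10.3% and 10.4% of the saline nuclei and 9.77%, 8.77% and 6.63% of those of IL-27 4, 5 and 10. Pigment cell nuclei, defined by at least 3 of 8 pigment genes, numbered 7, 12 and 14 in saline and 2, 2 and 7 in IL-27, and 1 of these 44 was also a ciliary-epithelium-like nucleus. Their share averaged 0.118% ± 0.0416 in saline and 0.0391% ± 0.0306 in IL-27 (SD, n = 3 each). This cell type from outside the neural retina was also lowest in IL-27 4 (0.0213%) and IL-27 5 (0.0217%), on 2 nuclei each. The exact intervals of these shares reached 0.0769% and 0.0782% and cover saline 1 (0.0708%) and IL-27 10 (0.0744%). Within saline the order was opposite. Saline 1 had the most ciliary-epithelium-like nuclei (66) and the fewest pigment cell nuclei (7), and saline 6 the fewest (25) and the most (14). Where in the eye the pigment cell nuclei came from was not tested. How much anterior tissue each dissection carried is not given, and dissection and treatment cannot be told apart here.

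For gene levels, UMIs were summed over the ciliary-epithelium-like nuclei and over the Muller nuclei of each library and compared within libraries over 12258 genes that the rule did not use (edgeR quasi-likelihood F test, p-values adjusted by the Benjamini-Hochberg method). At an adjusted p under 0.05, 896 genes (7.31%) were higher and 1357 (11.1%) were lower in the ciliary-epithelium-like nuclei. These percentages are the background for the lists below. The lists share genes, so their counts are not separate results. From the ciliary epithelium list, Zic1 and Zic2 recur among the ciliary margin transcription factors. Col18a1, Col9a2 and Col9a3 recur among the matrix proteins, Bmp7 and Ptgds among the secreted signals, and Car2 and Atp1b2 among the ion transport genes. Both populations were chosen by expression, so the calls and p-values of this comparison describe the chosen nuclei. For 741 genes (6.05%) every fitted library of these nuclei lay above every library of Muller nuclei, and for 1190 (9.71%) every one lay below. The median log2 difference over all genes was -0.11. Scaled by library totals in place of TMM factors it was 0.04 and the calls split into 1098 higher and 1057 lower.

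The nuclei had less RNA of many Muller glia genes. Of 18 listed Muller genes, 9 were lower, 2 were higher (Hes1 and Vim) and 7 did not pass, with a median log2 difference of -0.85. Kcnj10, the potassium channel Kir4.1 of Muller endfeet, was at 4.69, 5.58 and 9.5 CPM in saline 1, 2 and 6 and at 0, 52.7 and 20.7 CPM in IL-27 4, 5 and 10. Muller nuclei held 71.2 to 89.1 CPM in every library, and the log2 difference was -3.44 (SE 0.493, adjusted p = 5.2e-10). The water channel gene Aqp4 (-2.29), the retinaldehyde binding protein gene Rlbp1 (-2.50), the thyroid hormone binding protein gene Crym (-3.11) and the receptor gene Gpr37 (-2.97) were lower in all 5 libraries of the fit.

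Several genes that Muller glia and the optic cup margin share did not pass the test. The eye field transcription factors Pax6 (log2 difference 0.14), Rax (-0.02) and Lhx2 (-0.07) and the lipoprotein genes Apoe (-0.01) and Clu (-0.31) were among these. Pax6 was at 887, 836 and 798 CPM in saline 1, 2 and 6 and at 394, 896 and 736 CPM in IL-27 4, 5 and 10, over 542 to 710 CPM in Muller nuclei. Its 2 populations overlapped in level.

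Of the non-pigmented ciliary epithelium list, 16 genes could be tested, of which 8 were higher, 2 were lower and 6 did not pass (median log2 difference 1.49). In the 4 libraries with at least 20 of these nuclei, 20 could be tested and 12 were higher and 3 lower (median 2.38). The higher genes were Zic1, Zic2, Bmp7, Wls, Col18a1, Col9a2, Col9a3 and Ptgds. The lower were Car2, a carbonic anhydrase, and Atp1b2, a sodium pump subunit. Otx1, Best2 and Bmp4 had too few UMIs for the test over 5 libraries. Otx1 was at 56.3, 39.0 and 38.0 CPM in saline 1, 2 and 6 and at 31.1 CPM in IL-27 10, with no UMI in IL-27 4 and 5, against at most 2.91 CPM in any library of Muller nuclei.

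**Figure D4:**
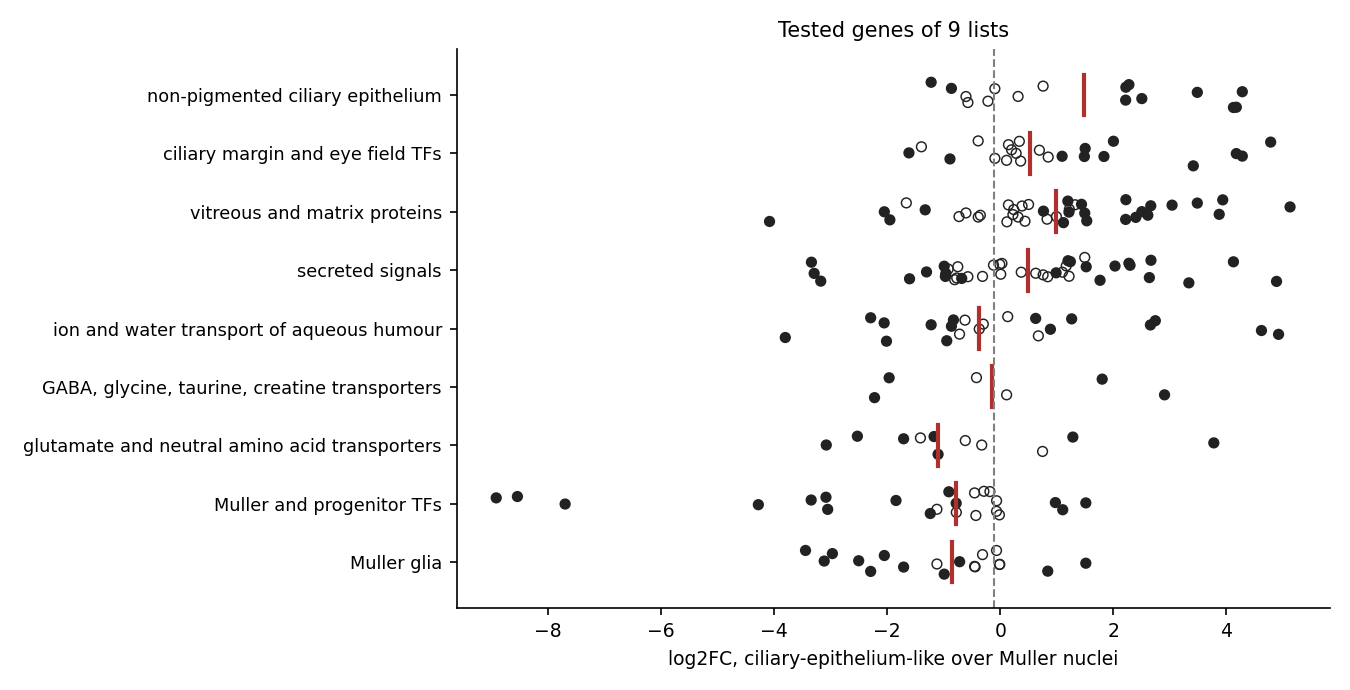
Log2 difference of ciliary-epithelium-like over Muller nuclei for each tested gene of 9 lists; filled points passed an adjusted p of 0.05, the red bar is the list's median and the dashed line the median of all genes. Matrix and ciliary margin genes lie mostly to the right and Muller genes to the left. The 3 points farthest left (Glis1, Prdm1, Pou3f2) had no UMI in the ciliary-epithelium-like nuclei, so their positions are no estimates of a fold.

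Transporters of the secretory layer were split. Of 21 tested genes of sodium, potassium, chloride, bicarbonate and water transport, 7 were higher and 8 lower, with a median of -0.37. The sodium pump subunit genes Atp1b1 (0.89) and Atp1b3 (0.63) were higher, and Atp1b2 (-0.86) was lower. Atp1b3 was at 394, 385 and 295 CPM in saline 1, 2 and 6 and at 197, 264 and 321 CPM in IL-27 4, 5 and 10, against 168 to 217 CPM in Muller nuclei. Its IL-27 4 library lay within the range of Muller nuclei and the other 5 lay above it.

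Bicarbonate transporter genes varied between libraries. Slc4a5, a sodium bicarbonate cotransporter, was at 183, 83.6 and 114 CPM in saline 1, 2 and 6 and at 0, 0 and 20.7 CPM in IL-27 4, 5 and 10 (log2 difference 2.74, SE 0.351, adjusted p = 3.4e-12). Slc4a4, another, was at 160, 22.3 and 399 CPM and at 0, 105 and 508 CPM. Its difference of 2.66 turned to -0.20 when at least 4 markers were required. Slc4a10, a sodium-driven exchanger, was lower (-2.01) but at 0.48 against Muller nuclei free of the exclusion genes. These last 2 genes therefore depend on which nuclei are counted.

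Channels that couple the epithelium or carry its ions differed in direction. Gja1, the gap junction gene connexin 43, was at 300.4, 329 and 209 CPM in saline 1, 2 and 6 and at 353 CPM in IL-27 10, with no UMI in IL-27 4 and 5. Muller nuclei held 0.217 to 19.7 CPM, and the log2 difference was 4.62 (SE 0.274, adjusted p = 1.68e-43). The potassium channel gene Kcnj13 was higher (1.26), while the chloride channel gene Ano1 (-3.80), the carbonic anhydrase genes Car2 (-1.22) and Car14 (-2.05) and Aqp4 were lower. Slc12a2, the sodium, potassium and chloride cotransporter, did not pass (-0.62, adjusted p = 0.224); it stood at 434 CPM in IL-27 4 and at 10.4 to 105 CPM in the other libraries.

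Among amino acid transporters, the taurine transporter gene Slc6a6 was at 2080, 2019 and 1948 CPM in saline 1, 2 and 6 and at 710, 527 and 2986 CPM in IL-27 4, 5 and 10. Muller nuclei held 138 to 266 CPM, below every one of these (log2 difference 2.90, SE 0.264, adjusted p = 4.76e-22). Slc7a11, the cystine and glutamate exchanger xCT, was at 493, 569 and 751 CPM and at 158, 211 and 560 CPM, against 14.5 to 41.9 CPM (3.78, adjusted p = 7.43e-38). The GABA transporter gene Slc6a11 was lower (-2.22), so these genes of taurine and of GABA uptake differed in direction, apart from the rule's own Slc6a13.

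Of the list for GABA, glycine, taurine and creatine, 2 of 6 tested genes were higher (Slc6a6 and Slc6a17) and 2 lower. Of 11 tested glutamate and neutral amino acid transporters, 2 were higher (Slc7a11 and Slc38a2) and 5 lower, among them the glutamate transporters of glia Slc1a2 (-2.53) and Slc1a3 (-1.71). Slc1a3 was at 211, 245 and 627 CPM in saline 1, 2 and 6 and at 276, 316 and 342 CPM in IL-27 4, 5 and 10, under the 762 to 1099 CPM of Muller nuclei. Monocarboxylate, glucose and anion transporters gave 1 higher gene, the glucose transporter Slc2a1 (0.89), and 1 lower, the citrate transporter Slc13a5 (-2.52), among 14 tested.

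By rank over all transporters with a like direction in every library, the largest excess was in Slc39a12, a zinc transporter gene also known from astrocytes. It was at 225, 178 and 95 CPM in saline 1, 2 and 6 and at 158, 52.7 and 124 CPM in IL-27 4, 5 and 10, with 0.434 to 4.95 CPM in Muller nuclei (log2 difference 5.05, SE 0.342, adjusted p = 1.58e-35). Slc7a11, Slc6a6 and the aromatic amino acid transporter gene Slc16a10 (3.04) were also in this group. Another, the drug efflux pump gene Abcb1a (3.87), was at 276 CPM in IL-27 4, the library with the nucleus of vascular markers, and at 9.39, 16.7, 9.5 and 10.4 CPM in the other 4 libraries of the fit.

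The largest deficits were in Slc44a5, with 1 UMI in all nuclei (62.5-fold lower, 95% counting interval 11.2 to 2470), and in Abca6, with 2 UMIs (19.7-fold lower, 5.46 to 163). Abca8b (-4.15), the amino acid transporter genes Slc7a8 (-3.08) and Slc7a2 (-2.73) and the cholesterol exporter gene Abca1 (-2.57) followed. Abca8b and Abca6 are close relatives of Abca8a, the gene that separated the populations, and their reads may be shared with it, so both are uncertain.

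**Figure D5:**
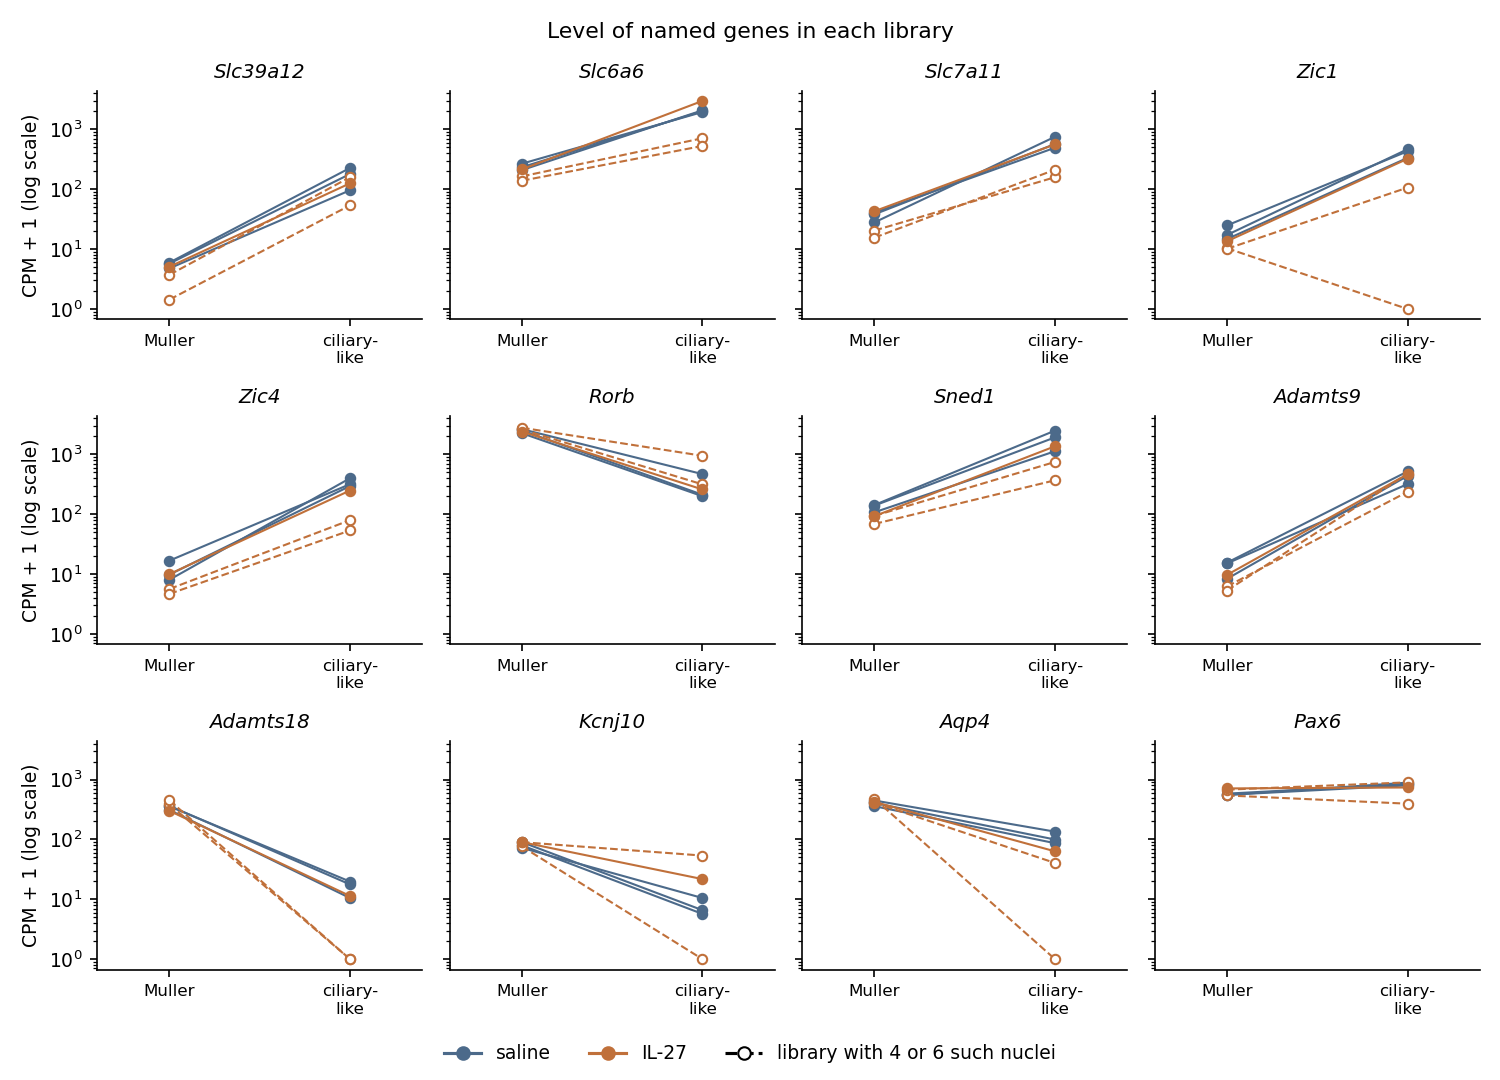
Levels of 12 genes as CPM + 1 (log axis) in Muller and ciliary-epithelium-like nuclei, with a line for each of the 6 libraries; open symbols and dashed lines mark IL-27 4 and IL-27 5, with 6 and 4 nuclei. Slc39a12, Slc6a6, Slc7a11, Zic4, Sned1 and Adamts9 rise to the right in every library, Rorb, Adamts18, Kcnj10 and Aqp4 fall, and Pax6 stays near its level.

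Transcription factors of the ciliary margin and eye field gave 9 higher and 2 lower genes of 22 tested, with a median log2 difference of 0.53. Zic genes, zinc finger factors of the optic cup margin and dorsal neural tube, led the rank. Zic4 was at 296, 318 and 399 CPM in saline 1, 2 and 6 and at 78.9, 52.7 and 249 CPM in IL-27 4, 5 and 10, above the 3.69 to 15.8 CPM of Muller nuclei in every library (log2 difference 4.78, SE 0.266, adjusted p = 1.1e-47). Zic1 was at 465, 429 and 333 CPM and at 0, 105 and 321 CPM, against 9.11 to 23.9 CPM. With no UMI in IL-27 4, it was higher in 4 of the 5 libraries (4.28, SE 0.253, adjusted p = 1.04e-43).

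Zic2 was at 98.6, 44.6 and 19.0 CPM in saline 1, 2 and 6 and at 78.9, 105 and 83.0 CPM in IL-27 4, 5 and 10 (4.17, adjusted p = 1.9e-16). Zic5 was at 56.3, 61.3 and 38.0 CPM and at 39.4, 0 and 62.2 CPM (3.41, adjusted p = 1.06e-11). All 4 tested Zic genes were thus higher, also under library totals. They lie as neighbours in the genome. In the GENCODE annotation of GRCm38, Zic1 is at chr9:91358058-91365810 on the minus strand and Zic4 at chr9:91362413-91389348 on the plus strand, with an overlap of 3398 bases. Zic5 (minus strand) and Zic2 (plus strand) lie 9758 bases apart on chromosome 14. Reads in the overlap of Zic1 and Zic4 can be told apart only by strand.

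The promoters of this pair are shown because the 2 genes were both low in Muller nuclei and high in these nuclei. Each sequence is the 250 bases before the RefSeq start in GRCm38.p6, written 5′ to 3′ on the gene's strand, with the E-box letters CACGTG in capitals. Zic1 is at chr9:91365769-91366018, minus strand, and Zic4 at chr9:91368722-91368971, plus strand.
Zic1: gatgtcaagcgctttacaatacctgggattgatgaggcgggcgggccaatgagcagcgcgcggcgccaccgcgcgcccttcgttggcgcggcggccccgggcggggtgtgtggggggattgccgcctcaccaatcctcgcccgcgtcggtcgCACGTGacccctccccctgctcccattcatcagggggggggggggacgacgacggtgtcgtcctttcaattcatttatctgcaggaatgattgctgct
Zic4: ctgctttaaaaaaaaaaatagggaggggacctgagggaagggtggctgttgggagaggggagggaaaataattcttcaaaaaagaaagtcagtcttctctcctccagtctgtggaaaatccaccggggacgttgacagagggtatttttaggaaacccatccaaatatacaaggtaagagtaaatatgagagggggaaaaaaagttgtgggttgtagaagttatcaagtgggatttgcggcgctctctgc
CACGTG, searched on both strands (it reads the same on each), was found 1 time in the Zic1 window, 98 bases before the start, and not in the Zic4 window. It is in 6.02% of 32851 promoter windows of this kind. TAATTA, the core of many homeodomain sites, was in neither window and is in 4.84% of all. The Zic1 window held 27 CG dinucleotides and the Zic4 window 4, with a median of 6 over all windows. The Zic4 window lies inside the GENCODE span of Zic4, downstream of its GENCODE start. The contrast between the windows therefore holds for this RefSeq start of Zic4 only. The RefSeq starts of the genes are 3204 bases apart, and these letter matches describe the windows only.

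Orphan nuclear receptor genes of the COUP family were higher too. Nr2f1 was at 197, 217 and 124 CPM in saline 1, 2 and 6 and at 118, 52.7 and 135 CPM in IL-27 4, 5 and 10, over 30.6 to 52.3 CPM in Muller nuclei (1.83, SE 0.258, adjusted p = 2.71e-10). Nr2f2 (1.5), the Wnt effector gene Lef1 (2.0), Meis2 (1.09) and Sox4 (1.49) were higher, and Sox6 (-1.62) and Tcf7l2 (-0.89) were lower. Hes1, a Notch target gene, was at 437 to 657 CPM in saline and at 473, 105 and 560 CPM in IL-27 4, 5 and 10, against 128 to 224 CPM (1.51, adjusted p = 6.15e-09).

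Of 23 tested Muller and progenitor transcription factors, 11 were lower and 3 higher (Hes1, Id1 and Id3), with a median of -0.78. Rorb was at 211, 468 and 200 CPM in saline 1, 2 and 6 and at 315, 949 and 259 CPM in IL-27 4, 5 and 10. Every library of Muller nuclei held more, 2263 to 2792 CPM (-3.34, SE 0.289, adjusted p = 5.78e-24). Tox2 (-3.08), Sox5 (-1.93) and Foxn2 (-1.67) were lower as well. The noncoding transcripts Sox2ot (-2.27) and Otx2os1 (-1.77), which entered the rank by the start of their symbols, were also lower, and Otx2os1 turned to 0.64 against Muller nuclei free of the exclusion genes.

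Some factors of Muller nuclei had no UMI in any of the 183 nuclei. Glis1 was at least 4.76-fold lower, Prdm1 at least 3.57-fold and Pou3f2 at least 1.89-fold, each at a floor of 3 UMIs over the nuclei of the 5 libraries.

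Genes for vitreous and matrix proteins gave the highest count of higher genes among the lists. Of 39 tested, 18 were higher, 4 lower and 17 did not pass, with a median log2 difference of 0.99. In libraries with at least 20 of these nuclei the split was 21 and 5 of 42. Vcan, the proteoglycan versican of the vitreous, was at 554, 519 and 323 CPM in saline 1, 2 and 6 and at 197, 211 and 363 CPM in IL-27 4, 5 and 10, over 11.5 to 31.3 CPM in Muller nuclei (3.93, SE 0.243, adjusted p = 7.17e-41). All 6 libraries lay above those of Muller nuclei.

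Adamts9, a protease that cleaves versican, was at 319, 519 and 437 CPM and at 237, 475 and 467 CPM, against 4.34 to 14.6 CPM (5.12, SE 0.25, adjusted p = 7.4e-57). Sned1, a matrix glycoprotein gene, was at 2502, 1929 and 1131 CPM and at 749, 369 and 1369 CPM, against 68.1 to 142 CPM (3.48, SE 0.261, adjusted p = 3.81e-30). Nid2, the basement membrane protein nidogen 2, followed with 3.87. The microfibril genes Fbn1 (2.61) and Fbn2 (2.66), which make the zonule that holds the lens, were also higher. Fbn1 was at 671, 496, 380 and 570 CPM in the 4 libraries with at least 20 of these nuclei, and at 39.4 and 52.7 CPM in IL-27 4 and 5.

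Collagen genes of the vitreous differed within a family. Col9a2 and Col9a3, alpha chains of collagen IX, were both higher with a log2 difference of 2.22, while Col9a1, the third chain, did not pass (-0.61, adjusted p = 0.077). Col9a1 was at 1070, 1154 and 589 CPM in saline 1, 2 and 6 and at 1183, 1213 and 1483 CPM in IL-27 4, 5 and 10, and Muller nuclei held 1182 to 1568 CPM. Col18a1 (2.5) and Col11a1 (2.40) were higher in all 5 libraries, and Col2a1, the main vitreous collagen, did not pass (0.31). Laminin alpha 1, encoded by Lama1, had 4 UMIs in all, every one in IL-27 10, against 83.1 to 117 CPM in Muller nuclei (-4.08). The metalloprotease gene Adamts18 had 9 UMIs (-4.71), opposite in direction to Adamts9.

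Of 40 tested genes for secreted signals, 13 were higher and 9 lower, with a median of 0.50. BMP ligands were on both sides. Bmp2 was at 108, 89.2 and 143 CPM in saline 1, 2 and 6 and at 39.4, 105 and 83.0 CPM in IL-27 4, 5 and 10, against at most 5.83 CPM in Muller nuclei (4.89, SE 0.422, adjusted p = 5.59e-24). Bmp7 was at 65.7, 112 and 57.0 CPM in saline and at 156 CPM in IL-27 10, with no UMI in IL-27 4 and 5 (4.12). Bmp5 had 1 UMI and was 38.7-fold lower (95% counting interval 6.93 to 1529).

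Wls, which carries Wnt ligands to the cell surface, was higher (3.48), as were the growth factor genes Ptn (1.76), Mdk (2.64) and Igf1 (1.52) and the binding protein genes Igfbp2 (2.66) and Igfbp5 (2.03). Igfbp7 was at 122, 167, 152 and 104 CPM in the 4 libraries with at least 20 of these nuclei and at 1341 CPM in IL-27 4. Its log2 difference was 3.34 over 5 libraries and 2.76 without IL-27 4. Other ligand genes were lower, with Fgf9 at -3.17, Fgf2 at -1.60, Pdgfc at -3.29, Ntn4 at -3.34 and Vegfa at -0.96.

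Retinoid genes gave 3 calls and immediate early genes 4, among 10 tested of each. Aldh1a3, which makes retinoic acid, was at 46.9, 55.8 and 47.5 CPM in saline 1, 2 and 6 and at 39.4, 105 and 62.2 CPM in IL-27 4, 5 and 10, against 0.217 to 2.04 CPM in Muller nuclei (5.03, SE 0.476, adjusted p = 1.49e-20). With Dhrs3 (1.32) it made 2 higher genes of 10 tested for retinoid metabolism, and Rlbp1 was the 1 lower. The immediate early genes that passed were all higher, 4 of 10 (background 7.31%). These were Dusp1 (3.17), Jun (1.78), Jund (1.34) and Btg2 (1.20), while Fos did not pass (-0.66, adjusted p = 0.403).

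Cytokine signalling genes gave 1 higher and 4 lower of 17 tested. Il33, an alarmin gene, was higher (1.12), and Osmr (-2.12), Cntfr (-1.65) and Il1rap (-1.76) were among the lower. Il33 was at 404, 413 and 323 CPM in saline 1, 2 and 6 and at 276, 264 and 581 CPM in IL-27 4, 5 and 10, against 127 to 214 CPM in Muller nuclei. All 6 libraries lay above those of Muller nuclei. Il27ra, the IL-27 receptor gene, had 1 UMI in all 183 nuclei and none in the Muller nuclei.

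Of the genes that the study named for a saline-enriched group of Muller nuclei, 14 that the rule did not use were listed, a choice made on these samples that is not independent evidence of its direction. The list does not hold every gene so named. Outside it, Gfap (0.46) and Apoe (-0.01) did not pass. Of the 13 that could be tested, 2 were higher in the ciliary-epithelium-like nuclei, Reln (3.04) and Csmd3 (2.55), and 11 were lower. One of these, Nostrin (-1.97, adjusted p = 0.0245), had no UMI in 5 libraries but stood at 158 CPM in IL-27 4, against 14.5 to 27.6 CPM in Muller nuclei, so its mean over the 5 libraries of the fit was higher in the ciliary-epithelium-like nuclei (31.5 against 24.8 CPM). With library totals in place of TMM factors it did not pass (-1.81, adjusted p = 0.0758), which leaves 10 lower. The median of the list was -3.08, and -2.41 with the 4 genes without a UMI set at their bounds. Reln, a secreted matrix glycoprotein gene, was at 1436, 1305 and 827 CPM in saline 1, 2 and 6 and at 434, 1266 and 1680 CPM in IL-27 4, 5 and 10, against 53.4 to 205 CPM in Muller nuclei. Galnt13 (-3.49) and Lsamp (-2.45) were among the lower, and Dio2 and Ninj2 had no UMI, at least 5.52-fold and 5.31-fold lower. Nox4 had too few UMIs for the test.

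Rod genes, a measure of free RNA from the outer retina, did not separate the populations. None of 10 rod genes passed in either direction. The test of the share of mitochondrial UMIs did not pass. The median of a library averaged 0.564% ± 0.188 in the ciliary-epithelium-like nuclei and 0.260% ± 0.0291 in Muller nuclei (SD, n = 6), higher in 5 of 6 libraries and lower in IL-27 5 (two-sided exact sign-flip permutation p = 0.0625, with 0.03125 the smallest possible). The part of this share in the gene differences was not tested.

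Whether IL-27 changed gene levels within the population could be tested only with few nuclei, over 3 saline libraries and IL-27 4 and 10. In the edgeR quasi-likelihood test, 0 of 2574 genes (0.0%) passed a Benjamini-Hochberg adjusted p of 0.05. At an unadjusted p under 0.05 there were 125 genes, 58 of them higher with IL-27. DESeq2 also called 0, with 77 at an unadjusted p under 0.05. The log2 difference of IL-27 over saline was -0.08 (SE 0.539) for Slc6a6, -0.80 (SE 0.457) for Zic4, -0.79 for Sned1 and 0.25 (SE 0.401) for Il33. Differences of this size were not detectable with these errors, which does not show that none occurred. On data simulated for this comparison, 169 of 200 genes changed by 3 on the log2 scale passed the test and 68 of 200 changed by 1.5. The effect of IL-27 differed from its effect in Muller nuclei for 16 genes in the higher (0.111% of 14422) and 7 in the lower direction (0.0485%), together 0.159%. These 23 calls fell to 2 without the nuclei that carried markers of another class. They fell to 0 by DESeq2 (278 at an unadjusted p under 0.05), with a minimum of 50 counts, after thinning and without nuclei of outlying depth. Of the 16, 15 had at least 10 UMIs in IL-27 4, the library with the nucleus of vascular markers.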

How the data were processed

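Nuclei were isolated from frozen rd10 retinas, and libraries were made with 10x Genomics kits. The authors deposited filtered matrices of raw UMI counts per gene and barcode, 1 matrix a library, over 32285 genes. The labels name Cell Ranger 9.0.1 and Seurat 5.2.1, and the matrix headers name Cell Ranger 8.0.1. The genome build and strand setting of the counting are not given in the sources used here. The authors' doublet calls and cell names were not used here.

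Barcodes with over 500 UMIs, at least 200 genes and under 5% mitochondrial UMIs were kept (Python 3.11.15, scanpy 1.11.5). Groups came from the labels. The population and all gene lists were chosen with earlier results of these data known. UMIs were summed per library and population. The sums were tested with edgeR 4.0.16 in R 4.3.3 (filterByExpr, TMM, quasi-likelihood F test, library as block, populations with at least 5 nuclei, the 14 genes of the rule left out). Fold changes are log2 with their standard errors, and p-values were adjusted by Benjamini-Hochberg over all genes tested. DESeq2 1.42.0 was an alternative, as were other scalings, filters, thinning, marker limits and omitted libraries. Scrublet marked doublets, which stayed in. On data simulated from these libraries for the comparison with Muller nuclei, 172 of 200 genes changed by 3 on the log2 scale and 112 of 200 changed by 1.5 were recovered among 11811 genes. For IL-27 against saline in the population, 169 of 200 and 68 of 200 were recovered among 2350 and 2291 genes.

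Named genes were the rule's own genes, the largest changes within each list, and the 6 largest in each direction among transporters, transcription factors and secreted genes with at least 50 CPM and the same direction in every library. Others were named for their known role after values were seen. Zic1, Gja1, Slc4a4 and Slc4a5 are outside that rule. Positions are from GENCODE and promoters from RefSeq on GRCm38. Figures were drawn with matplotlib 3.10.9. Some genes are not reported here.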

Additional observations from a re-analysis of the deposited data

Results flagged for a closer look

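The effect of IL-27 differed between ciliary-epithelium-like and Muller nuclei for 23 of 14422 genes (0.159%) by the interaction term of edgeR's quasi-likelihood test at a Benjamini-Hochberg adjusted p under 0.05. Relative to Muller nuclei, 16 genes were higher and 7 lower with IL-27 in the ciliary-epithelium-like nuclei. Of the 16, 15 had at least 10 UMIs in IL-27 4, the library with 6 of these nuclei, and 5 had no UMI in IL-27 10. They include the endothelial genes Fli1 (log2 difference 6.86, adjusted p = 0.00144), with 24 UMIs in IL-27 4 and 1 in IL-27 10, and Ptprb, with 32 and 0. The pericyte gene Rgs5 (4.56, adjusted p = 0.00521) had 38 and 12. In that library 1 nucleus had UMIs of all 10 vascular genes. Without the 12 nuclei that carried markers of another class, 2 genes were called, Ror2, a Wnt receptor gene (-4.15, adjusted p = 0.000889), and Arhgap31 (4.18, adjusted p = 0.00851). Ror2 had 25, 29 and 10 UMIs in saline 1, 2 and 6 (117, 162 and 95 CPM), 0 in IL-27 4 and 3 in IL-27 10 (31.1 CPM). IL-27 5, which was not in the fit, had 4 UMIs (211 CPM), above every saline library, so the groups overlapped. DESeq2 called 0 of the 14422 genes, with 278 at an unadjusted p under 0.05. On simulated data for this comparison 71 of 200 genes changed by 3 on the log2 scale were recovered.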

How the results depend on the processing

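The difference in share, 0.357 percentage points in favour of saline, kept its direction under every alternative. It was 0.606 with at least 2 markers, 1.59 without the exclusion genes, 0.859 after thinning to 1000 UMIs, 2.55 as a share of these and Muller nuclei together, and 0.275 to 0.476 without single libraries. Against Muller nuclei, 896 genes were higher and 1357 lower. The higher count was 406 after thinning and 1909 without the exclusion genes (605 to 1088 without single libraries). The lower count was 834 by DESeq2, 852 with a minimum of 50 counts and 668 after thinning (945 to 1346 without single libraries). The numbering pairs the populations by library, since both were taken from it. Without the library block, 984 were higher and 1377 lower. No replicate numbers are shared between treatments, so no pairing across them was possible. For IL-27 within the population the counts of 0 became 37 higher and 30 lower without a filter on low counts, 22 and 4 with at least 4 markers (1 IL-27 library left), and 37 and 16 without IL-27 replicate 10, which leaves IL-27 4 alone, whose variation is assumed like that of saline. They ranged from 0 to 37 and 0 to 16 without single libraries. The 23 interaction genes became 0 by DESeq2, with a minimum of 50 counts, after thinning and without nuclei of outlying depth. They became 37 with library totals and with Muller nuclei free of exclusion genes, 13 with at least 4 markers, 8 with all 6 libraries, and 2 without the exclusion genes and without nuclei carrying other markers (4 to 212 without single libraries, the highest without IL-27 10). Of 2414 values of 108 named genes under 23 alternatives, 2318 kept direction and call, 93 lost the call and 3 reversed, namely Otx2os1 (0.64), Slc4a10 (0.48) and Slc4a4 (-0.20). The causes were not tested. The treatment comparison rested on 25360 UMIs in IL-27 4 and 96440 in IL-27 10.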

Other observations

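Another 94 nuclei had UMIs of at least 3 of the 8 markers together with more than 1 UMI of Abca8a, and these were not counted as ciliary-epithelium-like. Fbln1 had a UMI in 5.49%, 6.67% and 2.44% of the Muller nuclei of saline 1, 2 and 6 and in 0.65%, 0.12% and 2.89% of those of IL-27 4, 5 and 10. Its order across the libraries was close to that of the share of ciliary-epithelium-like nuclei, and the part of free RNA in this was not tested. Of the 44 pigment cell nuclei, 59.1% had a UMI of Frmpd4, 20.5% of Fbln1 and 13.6% of Optc.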
